A study of Homo sapiens with 6 samples.

Results

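The NF-kappaB pathway was examined through 10 genes chosen by name from the 12180 genes listed for TE1 cells, a line grown from an esophageal squamous cell carcinoma (ESCC). They were 4 subunits (NFKB1, NFKB2, RELA and RELB), 2 feedback inhibitors that are themselves targets of the pathway (NFKBIA and TNFAIP3) and 4 further targets (BIRC3, ICAM1, CXCL8 and CXCL1). All 10 were listed, with 30 of the 33090 listed transcripts. The study compared 3 control libraries of TE1 cells (called NC here, given as wild type in the genotype label) with 3 libraries of TE1 cells that overexpressed FGL1 from a lentivirus (FGL1-OE). FGL1 is a secreted fibrinogen-like protein. The paper describes stable, drug-selected FGL1-OE cells and a nonsense lentiviral control for other assays, but does not say which control was sequenced. If the sequenced controls were not transduced, transduction and drug selection cannot be told apart from FGL1. Both groups came from 1 parental line, so the contrast is not of separate tumours. The sources used here do not say whether the 3 libraries of a group were grown separately, so the p-values measure the spread between these libraries, which may be technical.

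NF-kappaB is a family of paired transcription factors. In resting cells, pairs such as RELA with the p50 product of NFKB1 are held in the cytoplasm by IkappaB proteins, of which NFKBIA encodes IkappaB-alpha. Signals from tumour necrosis factor or interleukin-1 receptors activate a kinase complex that marks IkappaB-alpha for destruction, and the freed pair enters the nucleus and binds kappaB sites. A slower arm acts through the processing of NFKB2 and through RELB. The pathway switches on its own inhibitors as well as chemokines, adhesion molecules and survival genes, and in squamous carcinomas it is known for inflammatory and survival signalling. Much of its control acts on protein location and stability, which RNA levels do not report.

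The promoter windows that carry kappaB-like words are shown first because they are the sequence feature that most of the 10 genes share. RefSeq promoter sequence (GRCh38.p14) was held for 9 of the 10 genes, and the entry for RELB was missing. A match to the degenerate kappaB consensus, sought on both strands in the 250 bases before each annotated start, was present in 6 of those 9 genes (NFKB1, NFKB2, NFKBIA, TNFAIP3, BIRC3 and CXCL1) and in 11.8% of 27305 genes with a promoter, or 9.96% of 35116 promoters. The word GGAATTTCC, chosen after these promoters had been read, was present on either strand in 5 of the 9 (NFKB1, NFKBIA, ICAM1, CXCL8 and CXCL1) and in 0.502% of genes, or 0.413% of promoters. It overlapped the consensus match in NFKB1, NFKBIA and CXCL1. Neither was found in the window of RELA. The following 30-base windows show a single site per gene. The sites of NFKB2 and a further site each of TNFAIP3 and BIRC3 are not printed. The windows run 5′ to 3′ along the gene's own strand, with the matched bases in capitals:
NFKB1, chr4:102501300-102501329, plus strand: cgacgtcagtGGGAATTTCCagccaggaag
NFKBIA, chr14:35404811-35404840, minus strand: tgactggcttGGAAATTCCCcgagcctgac
TNFAIP3, chr6:137867194-137867223, plus strand: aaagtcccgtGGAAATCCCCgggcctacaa
BIRC3, chr11:102317275-102317304, plus strand: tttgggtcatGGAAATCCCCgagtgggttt
ICAM1, chr19:10270923-10270952, plus strand: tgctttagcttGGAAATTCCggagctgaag
CXCL8, chr4:73740467-73740496, plus strand: ttgcaaatcgtGGAATTTCCtctgacataa
CXCL1, chr4:73869304-73869333, plus strand: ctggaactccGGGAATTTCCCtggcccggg
The word lay 91 to 83 bases before the start of CXCL8 and 186 to 178 bases before that of ICAM1. A match to these letters is a description and not a bound site, and no binding was measured. The genes were chosen by name as subunits and targets of the pathway, so their shares beside those of all genes are a description too. The genes with a match and those without one are read against their RNA levels below.

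Values were FPKM, fragments scaled by transcript length and by the size of the library. They carry no read counts, so sequencing depth is unknown and no counting interval is given. FGL1 itself was at 0.0202, 0 and 0.106 FPKM in NC 1, NC 2 and NC 3 against 33.5, 39.3 and 39.9 FPKM in FGL1-OE 1, 2 and 3, as labelled. Of 9 markers sought for squamous epithelium, 8 were listed (summed level 480 to 773 FPKM in NC against 680 to 763 in FGL1-OE), and KRT14 was not. The sum rested mostly on SFN (198 to 459 FPKM over all libraries), KRT6A (108 to 197) and EPCAM (90.5 to 122). KRT5 (4.27 to 6.24 FPKM) and KRT13 (3.16 to 6.42) were near the level of CD68 on the immune list (2.25 to 5.73). TP63 was at 0.299 to 0.779 FPKM. Immune markers were low (4 of 7 listed, summed 5.56 to 7.87 FPKM in NC against 5.70 to 7.16 in FGL1-OE, with PTPRC, CD3E and LYZ not listed), as were fibroblast markers (3 of 6 listed, 2.29 to 8.11 and 3.24 to 8.27). None of 4 endothelial markers was listed. The NC libraries stood apart from each other: the correlation of log2 FPKM across genes was 0.888 between NC 1 and NC 2, while it lay between 0.982 and 0.986 among the FGL1-OE libraries. A library's deviations from the mean of all 6 libraries went with the GC content of the genes, with Spearman's rho of 0.708 in NC 1 and -0.747 in NC 2 across genes, which are not independent replicates. It was 0.435 in NC 3 and 0.266, -0.536 and -0.343 in FGL1-OE 1, 2 and 3, so the trend was not confined to NC 1 and NC 2.

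Subunits and chemokines were higher in FGL1-OE than in NC in several of the 10 genes, but no gene passed the test after adjustment. RELA, RELB, CXCL8, CXCL1 and NFKB1 were each higher in all 3 FGL1-OE libraries than in all 3 NC libraries, while NFKB2, NFKBIA and ICAM1 were close to level and TNFAIP3 and BIRC3 overlapped. The fold change was fitted with limma on log2(FPKM + 1), which understates the change of genes at low levels, and p-values were adjusted by Benjamini-Hochberg over the 12017 genes with a mean of at least 0.5 FPKM, which all 10 genes passed. None of the 10 reached an adjusted p under 0.05 in limma, against 0.00832% of all genes tested, which was FGL1 alone, and the adjusted p was 1 for each of the 10.  At an unadjusted p under 0.05, 3 of 10 passed (RELA, RELB and CXCL8, all higher), against 2.01% of all genes tested in either direction and 1.21% in the higher direction. The groups did not overlap in 5 of 10, all higher, against 7.15% of all genes in either direction and 4.09% in the higher direction. The log2 fold change was above 0 in 9 of 10, against 53.7% of all genes, and its median was 0.23 over the 10 genes and 0.02 over all genes tested. The 10 genes were chosen by name with earlier results of these data known, so these counts are a description. Most of the calls at the unadjusted threshold were lost when 1 library was left out: RELA passed it without NC 3 and no other library, RELB without NC 1 or FGL1-OE 3, and CXCL8 without NC 2 or FGL1-OE 1, and BIRC3 passed it without NC 2. In bulk RNA, more cells expressing a gene and more RNA per cell cannot be told apart. An exact permutation test of 3 against 3 libraries cannot give a two-sided p under 0.1, the value it gave for each of the 5 genes without overlap.

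**Figure D1:**
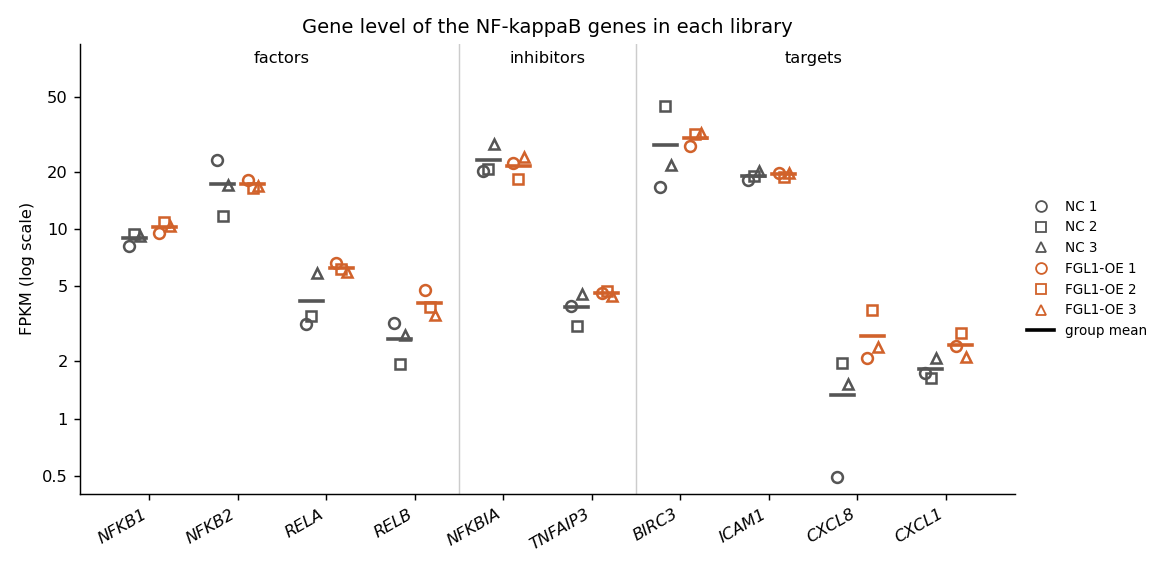
FPKM of the 10 genes (log axis) in each of 3 NC libraries (grey) and 3 FGL1-OE libraries (orange), with a bar at each group mean and the symbol giving the library number. RELA, RELB, CXCL8, CXCL1 and NFKB1 show no overlap between the groups, and the NC libraries are spread more widely than the FGL1-OE libraries for most genes.

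Per length, BIRC3 had the highest mean level of the 10 genes in each group and the chemokines had the lowest. In FGL1-OE the order of the mean levels was BIRC3, NFKBIA, ICAM1, NFKB2, NFKB1, RELA, TNFAIP3, RELB, CXCL8 and CXCL1. The library values of neighbours overlapped for NFKBIA and ICAM1, for TNFAIP3 and RELB, for RELB and CXCL8, and for CXCL8 and CXCL1, and did not overlap for the other neighbours. In NC the order of the means was the same except that CXCL1 lay above CXCL8, but the place of BIRC3 there rested on NC 2: in NC 1 it was below NFKB2, NFKBIA and ICAM1, and in NC 3 below NFKBIA. Against all genes tested, the mean level of BIRC3 stood at the 88.3rd percentile, that of RELA at the 46.4th, that of RELB at the 33.4th and that of CXCL8 at the 20.1st.

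Of the subunits, RELA and RELB were higher in FGL1-OE. RELA (ENSG00000173039, chromosome 11, 65421067 to 65430565 in GRCh37, the build of all gene and transcript positions given here) encodes p65, the subunit that carries most of the activating function of the classical pair. It stood at 3.15, 3.496 and 5.89 FPKM in NC 1, NC 2 and NC 3 against 6.59, 6.14 and 5.96 FPKM in FGL1-OE 1, 2 and 3. The groups did not overlap as deposited, but did once values were scaled to a common sum or quantile normalized, since NC 3 lay just below the lowest FGL1-OE library and far from the other NC libraries. The means were 4.18 ± 1.495 and 6.23 ± 0.327 FPKM (SD, n = 3 each), with a log2 fold change of 0.52 (SE 0.21, 95% interval 0.02 to 1.01). Without NC 3 the log2 fold change of RELA was 0.74, and without NC 1 it was 0.38.

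RELB (ENSG00000104856, chromosome 19, 45504688 to 45541456) encodes the partner of the p52 product of NFKB2 in the slower arm. Its level was 3.21, 1.94 and 2.76 FPKM in the NC libraries and 4.75, 3.89 and 3.51 FPKM in the FGL1-OE libraries. All 3 FGL1-OE libraries were above all NC libraries, with means of 2.64 ± 0.644 and 4.05 ± 0.637 FPKM (SD, n = 3). It had a log2 fold change of 0.48 (SE 0.19, 95% interval 0.04 to 0.92), and it was 0.34 without NC 2, the lowest library.

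The precursor genes of the family differed less. NFKB1 (ENSG00000109320, chromosome 4, 103422486 to 103538459), the precursor of p50, stood at 8.19, 9.38 and 9.21 FPKM in NC against 9.51, 10.9 and 10.4 FPKM in FGL1-OE. The groups did not overlap, yet the gap between the highest NC and the lowest FGL1-OE library was small beside the spread within each group, and the log2 fold change was 0.19 (SE 0.14). NFKB2 (ENSG00000077150, chromosome 10, 104153867 to 104162286), the precursor of p52, stood at 23.1, 11.7 and 17.2 FPKM in NC against 18.2, 16.6 and 16.9 FPKM in FGL1-OE. Its NC libraries lay on both sides of the FGL1-OE libraries. The means were 17.3 ± 5.68 and 17.2 ± 0.886 FPKM (SD, n = 3) and the log2 fold change was 0.04 (SE 0.24, 95% interval -0.51 to 0.59). The sign for NFKB2 rested on single NC libraries, with 0.26 without NC 1 and -0.20 without NC 2.

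The feedback inhibitors did not separate the groups. NFKBIA (ENSG00000100906, chromosome 14, 35870717 to 35873955) stood at 20.2, 20.8 and 28.3 FPKM in NC against 22.3, 18.3 and 24.1 FPKM in FGL1-OE. The groups overlapped throughout, with a log2 fold change of -0.09 (SE 0.19, 95% interval -0.53 to 0.35). The sign of NFKBIA turned without NC 3, to 0.06, and without FGL1-OE 2, to 0.02. TNFAIP3 (ENSG00000118503, chromosome 6, 138188325 to 138204449) encodes A20, a ubiquitin-editing enzyme that shuts off signalling upstream of the kinase complex. Its level was 3.94, 3.08 and 4.56 FPKM in NC against 4.62, 4.69 and 4.42 FPKM in FGL1-OE. In TNFAIP3, 2 of the 3 FGL1-OE libraries were above all NC libraries and the third lay below NC 3. Its log2 fold change was 0.21 (SE 0.16, 95% interval -0.17 to 0.59), and 0.09 without NC 2.

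Among the targets, CXCL8 was under the unadjusted threshold and CXCL1 was not, though both had groups without overlap. CXCL8 (ENSG00000169429, chromosome 4, 74606223 to 74609433) encodes interleukin-8, which draws neutrophils and promotes vessel growth. It was at 0.491, 1.96 and 1.52 FPKM in NC 1, NC 2 and NC 3 against 2.10, 3.74 and 2.38 FPKM in FGL1-OE 1, 2 and 3. All FGL1-OE libraries were above all NC libraries, NC 1 was well below the other NC libraries, and NC 2 lay close under FGL1-OE 1. The means were 1.32 ± 0.753 and 2.74 ± 0.875 FPKM (SD, n = 3), a ratio of means of 2.07. The log2 fold change on the log2(FPKM + 1) scale was 0.72 (SE 0.29, 95% interval 0.05 to 1.39), the largest of the 10 genes with all libraries. It was 1.14 with a pseudocount of 0.1 and 0.43 without NC 1, where RELB at 0.59 was larger. CXCL1 (ENSG00000163739, chromosome 4, 74735110 to 74736959), a neighbour of CXCL8 in the chemokine cluster and a ligand of the same receptor, CXCR2, was at 1.73, 1.64 and 2.08 FPKM in NC against 2.41, 2.84 and 2.12 FPKM in FGL1-OE. The groups did not overlap, although FGL1-OE 3 was close to NC 3, and they overlapped once the GC and length trend described below was removed. The means of CXCL1 were 1.82 ± 0.231 and 2.46 ± 0.360 FPKM (SD, n = 3), with a log2 fold change of 0.29 (SE 0.15, 95% interval -0.06 to 0.65). Of the 31-base words of its listed transcript, 67.7% were found in no other annotated transcript of CXCL1. CXCL1 has close paralogs whose sequences were not compared, so whether its signal is split with them was not tested.

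The remaining targets, which had far higher levels than the chemokines, did not separate the groups. BIRC3 (ENSG00000023445, chromosome 11, 102188181 to 102210134) encodes cIAP2, a ubiquitin ligase that protects against cell death. It stood at 16.7, 44.6 and 21.8 FPKM in NC against 27.5, 31.6 and 32.0 FPKM in FGL1-OE. NC 2 was above every other library and the other NC libraries were below every FGL1-OE library. BIRC3 had a log2 fold change of 0.25 (SE 0.33, 95% interval -0.52 to 1.01). It was 0.64 without NC 2 and -0.04 without NC 1. ICAM1 (ENSG00000090339, chromosome 19, 10381511 to 10397291), an adhesion molecule for leukocytes, stood at 18.2, 19.0 and 20.3 FPKM in NC against 19.8, 18.8 and 19.9 FPKM in FGL1-OE. On the log2 scale it had the narrowest spread of the 10 genes within NC, and its log2 fold change was 0.02 (SE 0.14, 95% interval -0.29 to 0.34). Its sign turned to -0.01 without NC 1 and under quantile normalization.

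**Figure D2:**
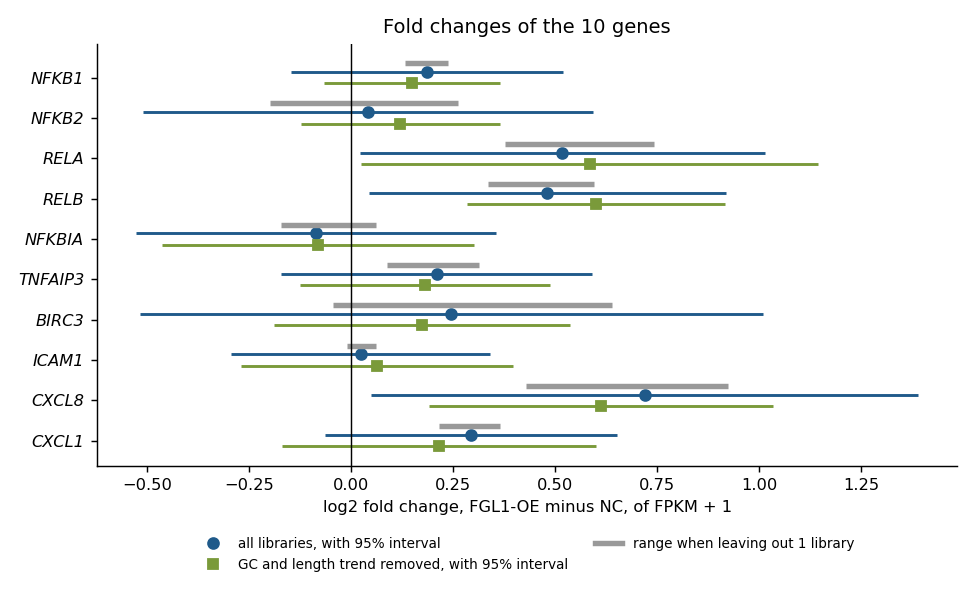
Log2 fold change of FPKM + 1, FGL1-OE minus NC, for the 10 genes, with 95% intervals from limma for all 6 libraries (blue) and after a trend in GC content and length was removed from each library (green); grey bars span the values when each library was left out in turn. The intervals of RELA, RELB and CXCL8 lie above 0 in both fits, and the grey bars of NFKB2, NFKBIA, BIRC3 and ICAM1 cross 0.

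Genes with a promoter word were found both among those that overlapped and among those that did not. Of the 5 genes with GGAATTTCC, 3 (NFKB1, CXCL8 and CXCL1) had groups that did not overlap and 2 (NFKBIA and ICAM1) had groups that overlapped. RELA, without either word in its window, did not overlap, while NFKB2, TNFAIP3 and BIRC3, each with a match to the consensus, overlapped. Over all genes tested, 7.15% did not overlap in either direction and 4.09% in the higher direction. NFKB1 and RELA overlapped once values were scaled to a common sum, and CXCL1 once the GC and length trend was removed. GGAATTTCC was chosen after these promoters had been read, so these counts are a description.

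Spread within the NC group set the width of most of these intervals. The median SD of log2(FPKM + 1) over the 10 genes was 0.26 in NC and 0.11 in FGL1-OE, against 0.31 and 0.12 over all genes tested. The SD was larger in NC for 9 of the 10 genes and for 10108 of 12017 genes. GC content, computed from annotated transcripts, is given beside the deviations of the genes in the libraries that stood apart and in FGL1-OE 2. CXCL8 and BIRC3 had GC contents of 36.9% and 39.4%, at the 1.34th and 5.86th percentiles of all genes, and RELA, NFKB2 and RELB had 61.1%, 61.9% and 65.1%, at the 85.3rd, 87.8th and 95.8th. In NC 1, CXCL8 and BIRC3 lay 0.94 and 0.70 below their 6-library means on the log2 scale (values of -0.94 and -0.70) and NFKB2 lay 0.42 above. In NC 2, BIRC3 lay 0.66 above its mean and RELB, NFKB2 and RELA had values of -0.53, -0.50 and -0.43. The order was not strict: in NC 1, RELA was at -0.54 and RELB, the most GC-rich of the 10 genes, at -0.01, and in NC 2, CXCL8, the most AT-rich, was at 0.05. In FGL1-OE 2, where rho with GC content was -0.536, CXCL8 was at 0.73, its highest value, and BIRC3 at 0.18. RELA, RELB and NFKB2 were there at 0.24, 0.20 and -0.03.

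**Figure D3:**
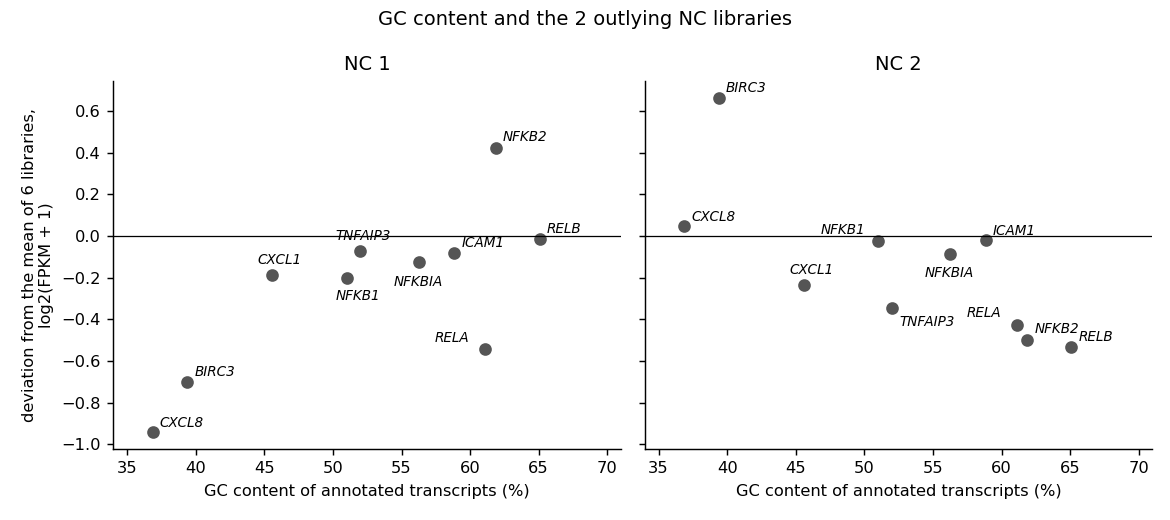
Deviation of each of the 10 genes from its mean over 6 libraries, in log2(FPKM + 1), against the GC content of its annotated transcripts, in NC 1 (left) and NC 2 (right). The AT-rich genes CXCL8 and BIRC3 are the lowest in NC 1, and BIRC3 is the highest and RELB and NFKB2 are the lowest in NC 2.

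After a smooth trend in GC content and length was removed from each library, a step chosen after seeing the data, RELA, RELB and CXCL8 were still higher at an unadjusted p under 0.05, against 5.78% of all genes in either direction and 2.86% in the higher direction in that fit. The log2 fold change of RELB was 0.60 (SE 0.13; limma adjusted p = 0.596), that of CXCL8 was 0.61 (SE 0.18; limma adjusted p = 0.845) and that of RELA was 0.58 (SE 0.24; limma adjusted p = 0.845). The SD within NC fell from 0.71 to 0.29 for BIRC3, from 0.46 to 0.13 for NFKB2 and from 0.52 to 0.23 for CXCL8. It rose from 0.07 to 0.26 for ICAM1 and from 0.12 to 0.29 for CXCL1. For RELA it rose from 0.39 to 0.51, the largest of the 10 genes in that fit. BIRC3 and NFKB2 then had log2 fold changes of 0.17 (SE 0.15) and 0.12 (SE 0.10), still short of the threshold. The groups did not overlap in 4 of 10 genes, all higher, against 6.89% of all genes in the higher direction.

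At the level of transcripts, the largest differences between libraries were in which RELA and RELB transcripts received the signal. Of the 30 listed transcripts 26 passed the filter of a mean of 0.5 FPKM. None of the 26 reached an adjusted p under 0.05 or an unadjusted p under 0.05 in limma, against 0.0165% and 3.53% of 30330 transcripts tested. The groups did not overlap in 3 (NFKB1-202, RELA-201 and CXCL8-201), all higher, against 4.65% of all transcripts in the higher direction, and 16 of 26 had a log2 fold change above 0, against 51.9%. Transcripts of 1 gene share most of their sequence, and the summed FPKM of the listed transcripts was 1.11 to 2.15 times the gene value over the 10 genes and 6 libraries, so gene and transcript values are not on 1 additive scale.

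RELA-201 and RELA-202 differ in coding sequence by 9 bases at an exon junction, and they are shown because so little sequence separates transcripts whose values differed widely. The coding sequence around it (GENCODE release 29), with the additional bases of RELA-202 in capitals, is:
RELA-201: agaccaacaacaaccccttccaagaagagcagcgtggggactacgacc
RELA-202: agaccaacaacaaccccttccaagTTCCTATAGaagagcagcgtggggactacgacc
The insertion adds 3 codons, giving 551 codons in RELA-202 and 548 in RELA-201, and RELA-226 has 448. Of the 31-base words of RELA-201, RELA-202 and RELA-226, 1.06%, 0.187% and 0% were found in no other annotated transcript of RELA. RELA-201 was listed at 0 in NC 1 and was at 4.66 and 8.92 FPKM in NC 2 and NC 3, against 10.95, 10.01 and 10.04 FPKM in FGL1-OE 1, 2 and 3. Its share of the summed RELA transcripts was 0%, 66.8% and 82.5% in NC and 87.2%, 93.4% and 94.3% in FGL1-OE, without overlap (exact permutation test, two-sided p = 0.1, the smallest possible). How often shares separated the groups over all transcripts was not computed, so this is a description. The log2 fold change of RELA-201 was 1.56 (SE 0.82) and 0.60 without NC 1. RELA-226 held 41.4% and 22.8% of the summed RELA transcripts in NC 1 and NC 2 and under 1% in the other 4 libraries, with 2.81, 1.59 and 0.0601 FPKM in NC against 0.104, 0.0324 and 0.0329 FPKM in FGL1-OE. RELA-202 was at 3.16 FPKM in NC 1, 46.6% of the summed RELA transcripts, and at no more than 0.0390 FPKM in any other library. RELA-226 and RELA-202 averaged 0.0565 and 0.0130 FPKM in FGL1-OE, and their means reached 0.5 FPKM only in NC. Their direction is therefore no support. The sum of the listed RELA transcripts had a log2 fold change of 0.44 (SE 0.22), and its groups overlapped.

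RELB-201, RELB-202 and RELB-207 replaced each other between libraries of the same group. RELB-201 held 35.7%, 100% and 54.0% of the summed RELB transcripts in NC and 32.1%, 24.7% and 8.85% in FGL1-OE, lower without overlap (exact permutation test, two-sided p = 0.1). Here too the rate of such separations over all transcripts was not computed. RELB-207 was at 1.41, 0 and 1.51 FPKM in NC against 4.22, 3.89 and 0.481 FPKM in FGL1-OE, while RELB-202 reached 3.74 FPKM in FGL1-OE 3 and 1.23 FPKM in NC 1, and was listed at 0 in the other 4 libraries. The mean of RELB-202 was 0.409 FPKM in NC and 1.25 FPKM in FGL1-OE, so it reached 0.5 FPKM only where it was higher. Its direction is no support, though it counts among the transcripts with a log2 fold change above 0. RELB-201 and RELB-207 both encode 579 codons, and 0.839% and 0.178% of their 31-base words were found in no other annotated transcript of RELB. The sum of the RELB transcripts kept the direction of the gene, with a log2 fold change of 0.57 (SE 0.21) and no overlap.

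NFKB2 and NFKBIA showed similar exchanges, with overlap between the groups in each transcript. NFKB2-201 was at 16.99, 14.7 and 8.87 FPKM in NC against 3.91, 8.52 and 11.7 FPKM in FGL1-OE, with a log2 fold change of -0.74 (SE 0.44), which ran from -1.04 without FGL1-OE 3 to -0.36 without FGL1-OE 1. NFKB2-204, whose coding sequence has 899 codons like that of NFKB2-201, was at 3.76, 0.408 and 12.5 FPKM in NC against 11.4, 12.2 and 7.01 FPKM in FGL1-OE, and NFKB2-203 was at 11.8, 1.25 and 1.91 FPKM and at 9.41, 1.70 and 4.06 FPKM. The main NFKBIA transcript was NFKBIA-209, with an annotated coding length of 227 codons against 317 in NFKBIA-201. It was at 27.1, 25.1 and 31.2 FPKM in NC against 25.8, 17.6 and 27.9 FPKM in FGL1-OE, or 85.1% ± 6.04 and 76.7% ± 10.4 of the gene (SD, n = 3). NFKBIA-208 was at 1.64, 2.44 and 4.42 FPKM in NC against 3.99, 8.57 and 2.83 FPKM in FGL1-OE.

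**Figure D4:**
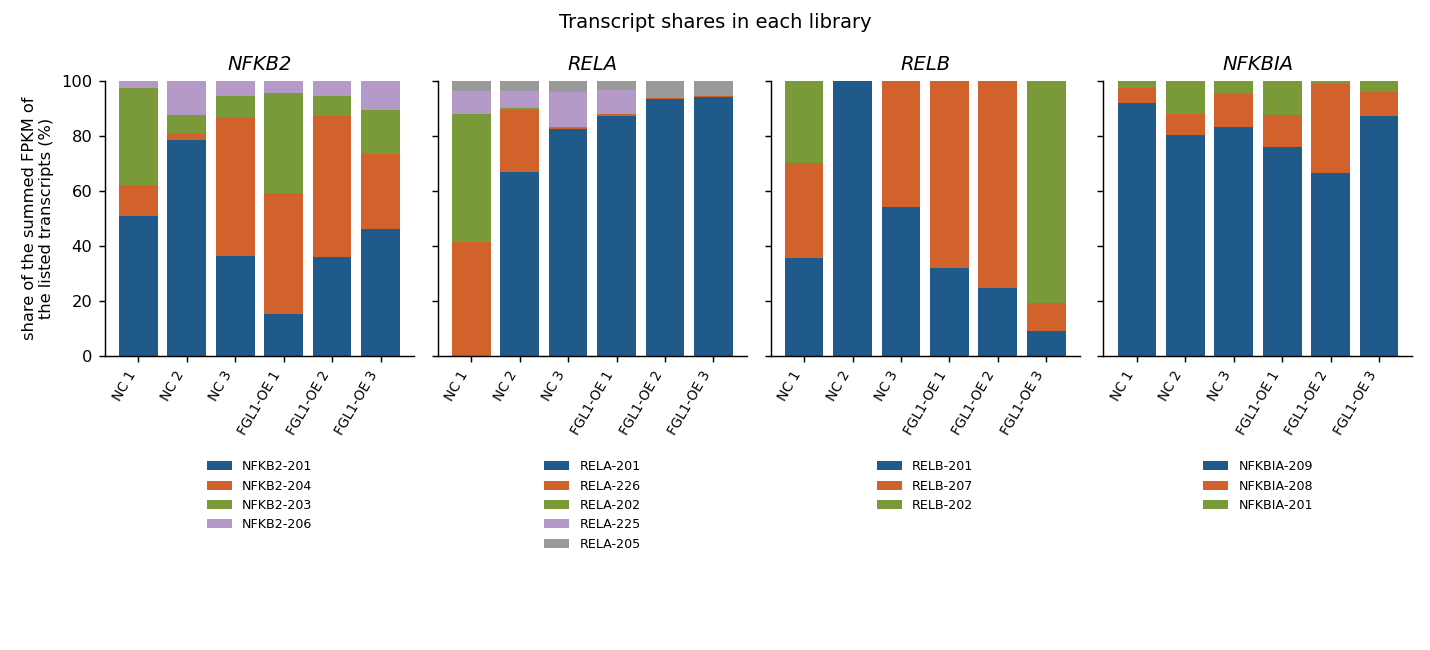
Share of the summed FPKM of the listed transcripts held by each transcript of NFKB2, RELA, RELB and NFKBIA, in percent, in each of the 6 libraries. RELA-201 holds 87.2% to 94.3% in FGL1-OE and 0% to 82.5% in NC, while RELB-207 or RELB-202 holds most of the RELB signal in the FGL1-OE libraries.

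The other genes were carried by 1 main transcript or by transcripts that moved little. CXCL8-201, the sole listed CXCL8 transcript, was at 0.648, 2.48 and 1.99 FPKM in NC against 2.68, 4.96 and 3.14 FPKM in FGL1-OE (log2 fold change 0.80, SE 0.37). CXCL1-201, the sole CXCL1 transcript, had a log2 fold change of 0.32 (SE 0.23) and overlapped, since FGL1-OE 3 at 2.44 FPKM was not above NC 3. NFKB1-202 was at 10.4, 12.4 and 12.6 FPKM in NC against 13.01, 15.1 and 13.2 FPKM in FGL1-OE, with a log2 fold change of 0.21 (SE 0.22). NFKB1-206, too low for the filter and named after its values were seen, was at 0.000466, 0.135 and 0 FPKM in NC against 0.436, 0.646 and 0.678 FPKM in FGL1-OE. Its mean was 0.0451 FPKM in NC and 0.587 FPKM in FGL1-OE, so it reached 0.5 FPKM only in the group in which it was higher. Its direction, and the higher share of NFKB1 that it held in FGL1-OE without overlap, are therefore no support. BIRC3-201 and ICAM1-201 held on average 92.9% and 97.8% of their genes in NC and 94.6% and 98.1% in FGL1-OE, with log2 fold changes of 0.25 (SE 0.38) and 0.03 (SE 0.21). TNFAIP3-210, TNFAIP3-208 and TNFAIP3-202 held 63.4%, 17.3% and 19.2% of the gene in NC and 67.1%, 17.7% and 15.2% in FGL1-OE, and their log2 fold changes were 0.20 (SE 0.27), 0.09 (SE 0.22) and -0.09 (SE 0.34).

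Upstream in the pathway, the receptors, adaptors and kinases showed no gene past the unadjusted threshold. All 22 receptors and adaptors listed of 24 sought were tested, none had an unadjusted p under 0.05 in limma, and 10 had a log2 fold change above 0, with a median of -0.06. Over all genes tested, 2.01% had an unadjusted p under 0.05, 7.15% did not overlap and 53.7% had a log2 fold change above 0. TNFRSF10A, a TRAIL receptor, was the only one whose groups did not overlap, at 8.11, 7.67 and 8.17 FPKM in NC against 8.99, 8.87 and 8.36 FPKM in FGL1-OE, and it is named after its values were seen. TRAF3, an adaptor that restrains the slower arm, had the largest positive value at 0.26 (SE 0.24), and TNFRSF12A, the receptor of TWEAK, the largest negative value at -0.35 (SE 0.21). All 17 kinases and ubiquitin enzymes were tested, and none had an unadjusted p under 0.05 or groups without overlap, and 8 had a log2 fold change above 0, against the same shares of all genes. Their median log2 fold change was -0.01, and the values ran from -0.29 (SE 0.19) for MAP3K7, the kinase TAK1, to 0.23 (SE 0.20) for BIRC2, the ubiquitin ligase cIAP1.

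Of 8 other REL and IkappaB-related genes, none had an unadjusted p under 0.05 and 2 had a log2 fold change above 0, against 2.01% and 53.7% of all genes, with a median of -0.11. TNIP1, a partner of A20, was the only one of the 8 without overlap, against 7.15% of all genes in either direction and 4.09% in the higher direction. It was at 16.1, 14.1 and 19.5 FPKM in NC against 21.6, 20.7 and 20.9 FPKM in FGL1-OE, with a log2 fold change of 0.34 (SE 0.16). The other gene above 0, NFKBIZ, averaged 0.439 FPKM in NC and 0.762 FPKM in FGL1-OE. NFKBIZ was listed only through the group in which it was higher, so its direction is no support. NFKBIE, which encodes IkappaB-epsilon, had the largest negative value at -0.37 (SE 0.21).

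Of 34 other inflammatory and survival targets, 19 were listed and 17 passed the filter, a subset that holds no gene at low levels in both groups. None had an adjusted p under 0.05, 2 had an unadjusted p under 0.05 (both higher, against 1.21% of all genes), 4 had groups without overlap (IL6, IER3, SOD2 and CFLAR, all higher, against 4.09%) and 13 had a log2 fold change above 0 (against 53.7%), with a median of 0.07. CFLAR averaged 0.439 FPKM in NC and 0.710 FPKM in FGL1-OE and was listed only through the group in which it was higher, so its direction is no support. IER3, an early stress-response gene that modulates cell death, was at 33.1, 33.9 and 35.9 FPKM in NC against 79.7, 68.4 and 70.2 FPKM in FGL1-OE. The lowest FGL1-OE library of IER3 was far above the highest NC library, and the log2 fold change was 1.06 (SE 0.14; limma adjusted p = 0.294). IL6, the cytokine interleukin-6, was at 7.90, 17.4 and 13.04 FPKM in NC against 21.1, 21.5 and 20.4 FPKM in FGL1-OE, with a log2 fold change of 0.74 (SE 0.26). Its NC libraries were spread widely and its FGL1-OE libraries closely. TNFAIP2 had the largest negative value of this list at -0.15 (SE 0.24).

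**Figure D5:**
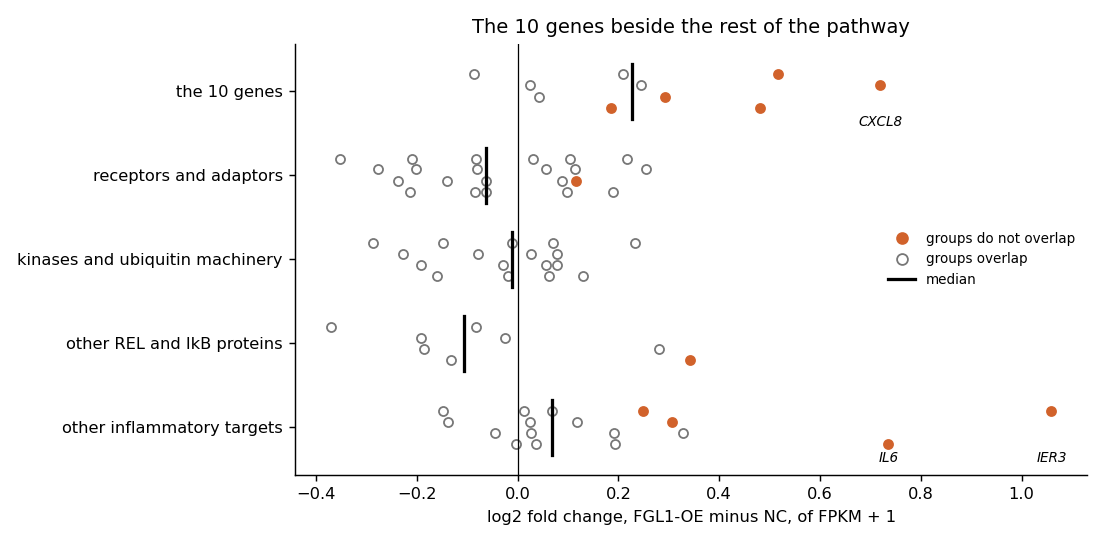
Log2 fold change of FPKM + 1, FGL1-OE minus NC, of the 10 genes and of the tested genes of 4 further lists of the pathway, with filled points where the groups do not overlap and a bar at each list's median. The medians are 0.23 for the 10 genes, -0.06 for receptors and adaptors, -0.01 for kinases and ubiquitin machinery, -0.11 for other REL and IkB proteins and 0.07 for other inflammatory targets.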

How the data were processed

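RNA-seq was reported for 3 NC and 3 FGL1-OE TE1 libraries. The deposited FPKM values per gene and per transcript were made by the authors; the submitters' processing notes name StringTie and GRCh37, and their versions and the aligner are not given in the sources used here. The deposited tables also hold the authors' group values, their fold changes as a ratio and as log2, and p-values and q-values, none of which was used. The tables list genes with a group mean of at least 0.5 FPKM in 1 group. FPKM times length showed no clear whole-read step, so no count test was run. Fold changes came from limma (3.58.1, R 4.3.3) on log2(FPKM + 1), where the 6 libraries averaged 0.5 FPKM or more, adjusted over 12017 genes or 30330 transcripts. Single values were compared with a two-sided exact permutation test. Groups came from the labels, and alternatives numbered 15. Named were all 10 genes, their transcripts with at least 10% of the gene in a group mean or an unadjusted p under 0.05, in each list the genes at that p and the largest rise and fall, and FGL1. Genes and lists were chosen with earlier results of these data known. Of the list of other inflammatory targets, 1 gene is not reported here. The fit was tested on simulated data. GC content and transcript sequences came from GENCODE release 29 and promoters from RefSeq (GRCh38.p14), with coordinates never converted between builds. Python 3 and matplotlib drew the figures.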

Additional observations from a re-analysis of the deposited data

How the results depend on the processing

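None of the 10 genes reached an adjusted p under 0.05 in limma under any of the 15 alternatives, and the lowest adjusted p was 0.194, for BIRC3 and CXCL8 without NC 2, a fit in which 21.8% of all genes had an unadjusted p under 0.05. RELA, RELB, CXCL8, CXCL1, NFKB1 and TNFAIP3 kept a positive log2 fold change under all of them. The count of genes with an unadjusted p under 0.05, 3 with all libraries, was 0 in an ordinary linear model without moderation, 2 with values scaled to a common sum (TPM) or quantile normalized, and 0 to 2 when 1 library was left out, with 0 without FGL1-OE 2. Of all 12017 genes, 207 were higher at that p in the ordinary linear model, 135 after TPM scaling and 140 after quantile normalization. With 1 library left out it was 55 to 1343 of all genes, the most without NC 2. The count without overlap, 5, was 3 after TPM scaling and 3 after quantile normalization, and 5 to 6 with 1 library left out. Of all genes, 485 were higher without overlap after TPM scaling and 473 after quantile normalization. With 1 library left out it was 670 to 2601 of all genes, again the most without NC 2. The groups of RELA overlapped under both scalings, those of RELB under quantile normalization and those of NFKB1 under TPM scaling. The median log2 fold change of the 10 genes was 0.20 to 0.27 with 1 library left out.

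Leaving out 1 library turned the sign for NFKB2 (-0.20 to 0.26), NFKBIA (-0.171 to 0.0621), BIRC3 (-0.0432 to 0.638) and ICAM1 (-0.0100 to 0.0623, and -0.0074 under quantile normalization). Log2 fold changes of transcripts that changed sign were those of NFKB2-203 (-0.24 to 1.03), RELB-202 (-0.39 to 0.75), TNFAIP3-202 (-0.24 to 0.16), BIRC3-201 (-0.0302 to 0.618) and ICAM1-201 (-0.0067 to 0.0741). Differences in share that changed sign, in percentage points, were those of NFKB2-203 (-5.07 to 12.6), RELB-202 (-9.97 to 30.4), TNFAIP3-208 (-1.24 to 3.15), TNFAIP3-202 (-7.07 to 0.202) and ICAM1-201 (-0.244 to 0.710). The count of transcripts with an unadjusted p under 0.05, 0 with all libraries, was 1 without the filter and 0 to 3 with 1 library left out. Of all 33090 transcripts, 697 were higher and 501 lower at that p without the filter. Without NC 3, the fit with 3, it was 703 higher and 456 lower of 30330. The transcript without the filter was NFKB1-206, which reached a mean of 0.5 FPKM only in FGL1-OE, so it is no support. For the further lists, the count at that p was 1 each for receptors and other targets in the ordinary linear model. It was 2 for other REL and IkB proteins after GC and length trend removal. With 1 library left out it was 0 to 3 of 22 receptors and 0 to 1 of 17 kinases. It was 0 to 3 of 8 REL and IkB proteins and 1 to 3 of 17 other targets. The maxima were without NC 2, lower except in other targets (higher). There 10.6% of all genes were lower and 11.2% higher at that p, and 21.6% were higher without overlap, against 6.68% without NC 1. The log2 fold change of FGL1 was 5.16 to 5.29 with 1 library left out, 8.12 with a pseudocount of 0.1 and 7.20 after TPM scaling. The cause of these shifts was not tested.

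The libraries share numbers 1 to 3 between groups, but same-numbered libraries deviated together in 2 of 3 cases (correlations of 0.341, 0.278 and -0.0624), so the numbers were not taken as pairs. NC 3 was closest to FGL1-OE 1 (0.111), not to its own number. With the replicate number as a block, 3 genes had an unadjusted p under 0.05 (RELA, RELB and CXCL8, limma), 5 did not overlap, and 1 transcript had an unadjusted p under 0.05. Of all 12017 genes in that fit, 169 were higher and 129 lower at that p, and 491 were higher without overlap. Of 30330 transcripts, 590 were higher and 463 lower at that p. The SE of CXCL8 was 0.18 with the block and 0.29 without it. Depth is unknown, which limits what can be said of CXCL8 and CXCL1, the lowest of the 10 genes.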
